A study of Rattus norvegicus with 12 samples.

Results

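The experiment described here asked what a small interfering RNA (siRNA) against Btg1 did to the transcripts of cultured heart muscle cells that also received an siRNA against Btg2. The samples were chosen by their titles and treatment labels: the 3 libraries that received both siRNAs (the double knockdown) were compared with the 3 that received the Btg2 siRNA with scramble (the Btg2 knockdown). They make up 6 of the 12 samples in the series. The other 6, the Btg1 knockdown and the scramble control, were used to measure the same Btg1 siRNA without the Btg2 siRNA. All cells were primary cardiomyocyte-enriched cultures from the heart ventricles of newborn (P0) wild-type Sprague-Dawley rats, so no group carried an engineered allele. Every culture received 20 nM of siRNA in total and was collected 48 h after transfection. The double knockdown received 10 nM of Btg1 siRNA and 10 nM of Btg2 siRNA. The Btg2 knockdown received 10 nM of Btg2 siRNA and 10 nM of scramble siRNA, a control sequence. The Btg1 knockdown received 10 nM of Btg1 siRNA and 10 nM of scramble, and the control received 20 nM of scramble. Both additions of the Btg1 siRNA therefore also removed 10 nM of scramble siRNA, and the double knockdown was the only group with no scramble siRNA. Whether the 3 libraries in each group are from different cultures or different animals is not stated in the labels. The p-values therefore reflect only how far these libraries differ, and that spread may be technical.

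Btg1 and Btg2 encode closely related proteins of the BTG/TOB family. These proteins restrain cell proliferation, and they bind the CCR4-NOT complex, which shortens the poly(A) tails of messenger RNAs and so prepares them for decay. In the heart, cardiomyocytes stop dividing soon after birth, when the ventricle also exchanges fetal for adult isoforms of contractile proteins.

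The 6 libraries held 24434925 to 41706601 counts. The lowest total belonged to replicate 2 of the Btg2 knockdown, and the next lowest was 36727943. Levels are given in CPM (counts scaled to a common library size by TMM factors), where 1 count was worth 0.0213 to 0.0422 CPM. CPM compare 1 gene between libraries and not different genes with each other. Cardiomyocyte markers were abundant: the 8 genes of that list had deposited TPM (a scale corrected for gene length) of 64.6 to 7798 with a median of 2832. Fibroblast markers were also present, with a median of 347.6 TPM, whereas endothelial markers had a median of 5.91 TPM and macrophage and leukocyte markers 1.70 TPM. On the first principal component of the 6 libraries, which held 45.6% of the variance, the double knockdown lay between 17.3 and 18.1 and the Btg2 knockdown between -20.3 and -15.9. The second component (16.2%) spread the double knockdown libraries from -13.9 in replicate 1 to 16.4 in replicate 3, so these 2 libraries stood farthest apart within a group. Changes are log2 differences between groups ± their standard error (SE), and adjusted p-values are from edgeR's quasi-likelihood F test with Benjamini-Hochberg adjustment over all genes tested, called at 0.05.

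The Btg1 siRNA lowered its target in the presence of the Btg2 siRNA. Btg1 stood at 50.9, 54.4 and 49.8 CPM in replicates 1 to 3 of the double knockdown and at 296, 305 and 297 CPM in the Btg2 knockdown. The groups lay far apart, and the 3 libraries of each were close to one another. The change was -2.53 ± 0.05 (adjusted p = 1.6e-21), which left 17.3% of the Btg1 level of the Btg2 knockdown. Without the Btg2 siRNA the same dose left 23.4% of Btg1 relative to scramble, and the difference between the effects of the Btg1 siRNA in the 2 backgrounds was -0.44 ± 0.06 (adjusted p = 2.9e-05).

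Btg2, which was targeted in both groups, was lower again when the Btg1 siRNA was added. It was at 69.6, 67.6 and 68.8 CPM in the double knockdown and at 82.8, 85.3 and 87.4 CPM in the Btg2 knockdown, with no overlap. The change was -0.31 ± 0.04 (adjusted p = 6.2e-06), leaving 80.6% of the Btg2 knockdown level. Against scramble the Btg1 siRNA went with a higher Btg2 level, 127% of scramble (0.34 ± 0.04, adjusted p = 7.5e-07), and the 2 effects differed by -0.65 ± 0.06 (adjusted p = 1.4e-07). In the double knockdown Btg2 was at 49.6% of its scramble level. The Btg2 knockdown kept more than that share, so the knockdown of Btg2 was partial. The comparison is therefore between cultures that differ strongly in Btg1 and slightly in Btg2. Of the 5 measured members of the BTG/TOB list, Btg1 and Btg2 fell and the remaining 3 (Btg3, Tob1 and Tob2) did not pass the test.

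**Figure D1:**
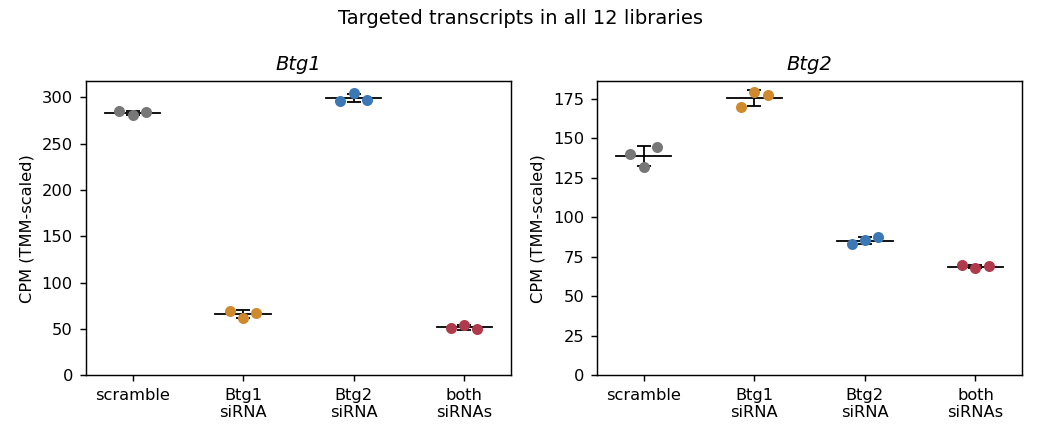
Btg1 and Btg2 levels in all 12 libraries, in TMM-scaled CPM on a linear axis from 0. Points are libraries, lines are group means and bars are SD (n = 3). Btg1 was near 50 to 54 CPM with both siRNAs against 296 to 305 with the Btg2 siRNA, and Btg2 was below 70 CPM with both siRNAs against 82.8 to 87.4.

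Adding the Btg1 siRNA changed many transcripts by small amounts. Of 12535 genes tested, 4039 (32.2%) passed the test, 1909 higher (15.2%) and 2130 lower (17%) in the double knockdown. The median change over all genes tested was 0.00 on the log2 scale, and the median size of the called changes was 0.28. A change of at least 1.5-fold was found for 237 genes that rose and 397 that fell, and at least 2-fold for 66 and 92. The 2 groups did not overlap in 5276 genes (42.1%). Of the 4039 genes called, 3834 did not overlap, so a lack of overlap adds little to a call. With library size alone in place of TMM scaling, 2443 genes were called higher and 1758 lower, and the median of all genes moved to 0.03, so the balance of rises and falls depended on the scaling. Genes called lower had the longer median length: relative length (1 for the median gene tested) was 1.25 for genes called lower and 0.986 for genes called higher. Across 10895 genes the Spearman correlation of the change with length was -0.11, a description with genes as points. With that trend removed, 2078 genes were called higher and 2067 lower.

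**Figure D2:**
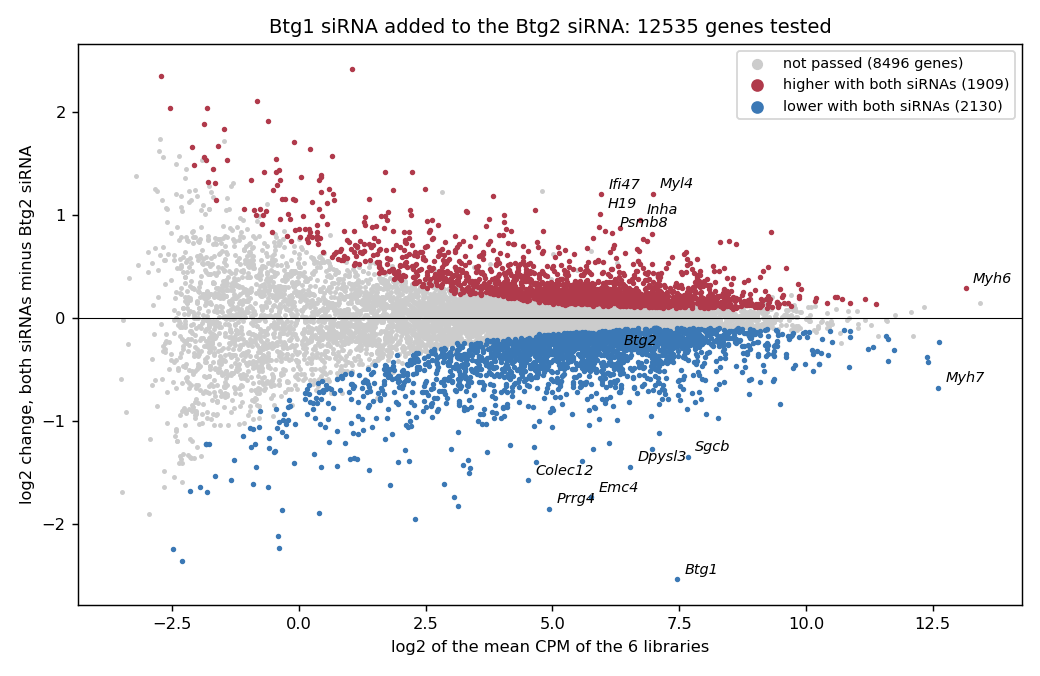
Log2 change between the double knockdown and the Btg2 knockdown (vertical axis) against the log2 of the mean CPM of the 6 libraries (horizontal axis), for the 12535 genes tested. Red points are the 1909 genes called higher with both siRNAs, blue points the 2130 called lower, grey points did not pass; Btg1 was among the lowest points at -2.53.

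Among genes with an established symbol that averaged at least 5 CPM, the 15 largest rises with no overlap between groups ran from 0.88 to 1.25. Reep6, which encodes a membrane-shaping protein of the endoplasmic reticulum (ER), led with 8.73, 6.61 and 8.53 CPM in the double knockdown and 2.84, 2.95 and 4.12 CPM in the Btg2 knockdown (1.25 ± 0.15, adjusted p = 9.1e-07). Its lowest double knockdown library stood above its highest Btg2 knockdown library. Myl4, the essential myosin light chain of atrial and fetal heart muscle, was at 156, 184 and 187 CPM against 72.8, 70.4 and 85.1 CPM (1.20 ± 0.07, adjusted p = 5e-10). Inha, the inhibin alpha subunit, which antagonizes activin, was at 136, 139 and 143 CPM against 71.1, 70.4 and 73.7 CPM (0.95 ± 0.04, adjusted p = 1.3e-13). For both genes each double knockdown library was well above every Btg2 knockdown library.

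These rises also included an interferon-inducible gene and a transporter gene. Ifi47, an interferon-inducible GTPase, was at 85.6, 89.6 and 84.7 CPM against 37.8, 38.8 and 36.6 CPM (1.20 ± 0.07, adjusted p = 2.5e-10). Abcb9, a lysosomal peptide transporter related to the antigen transporter TAP, was at 17.8, 19.1 and 22.7 CPM against 8.25, 8.35 and 9.59 CPM (1.18 ± 0.09, adjusted p = 9.6e-10). The imprinted long noncoding RNA H19 was at 87.4, 83.0 and 76.2 CPM against 41.6, 41.4 and 39.4 CPM (1.01 ± 0.12, adjusted p = 7.7e-05). H19 contains the microRNA gene Mir675, and how reads shared by overlapping genes were counted is not given in the sources used here. Cited1, a transcriptional coactivator, rose by 1.05 ± 0.08, and the growth factor receptor gene Fgfr3 by 1.03 ± 0.10. Tecrl, an ER protein linked to inherited arrhythmia, was at 17.0, 16.9 and 16.9 CPM against 8.79, 8.39 and 10.0 CPM (0.89 ± 0.09, adjusted p = 9.2e-08). The list was completed by Baalc at 1.04, Car2, a carbonic anhydrase, at 0.96, Klhl38 at 0.95, Mrvi1 at 0.93, the hyaluronan receptor gene Layn at 0.90, and the clathrin assembly gene Snap91 at 0.88.

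Beside that of Btg1 itself (-2.53), the 15 largest falls under the same limits ran from -1.85 to -1.29. Prrg4, a transmembrane protein with a Gla domain, was at 15.5, 12.9 and 11.5 CPM in the double knockdown and 47.8, 50.2 and 45.4 CPM in the Btg2 knockdown (-1.85 ± 0.08, adjusted p = 7.5e-14). Slc9a3, a sodium/proton exchanger, was at 3.60, 3.95 and 4.17 CPM against 14.1, 13.0 and 14.2 CPM (-1.82 ± 0.14, adjusted p = 5.8e-10). Every double knockdown library was below 16 CPM for Prrg4 and below 5 CPM for Slc9a3, and the groups were far apart in both. Emc4, a subunit of the ER membrane protein complex that inserts proteins into the membrane, was at 24.5, 25.8 and 24.7 CPM against 83.9, 84.4 and 82.2 CPM (-1.74 ± 0.06, adjusted p = 1.8e-16). Sgcb, beta-sarcoglycan of the dystrophin-associated complex, was at 111, 122 and 112 CPM against 282, 301 and 291 CPM (-1.34 ± 0.04, adjusted p = 1.1e-16). Emc4 and Sgcb were left at 29.9% and 39.4% of their Btg2 knockdown level.

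Several secreted or surface proteins were in this group. Colec12, a scavenger receptor of the collectin family, was at 11.9, 11.7 and 11.4 CPM against 33.4, 31.7 and 38.4 CPM (-1.57 ± 0.09, adjusted p = 2.4e-11). Cd55, which protects cells from complement, fell by 1.51 ± 0.10 on the log2 scale, the neurotrophin gene Bdnf by 1.45 ± 0.12 and the matrix gene Vwa1 by 1.39 ± 0.10. Dpysl3, a cytoskeletal protein known from neurons, was at 57.0, 48.6 and 44.0 CPM against 138, 135 and 132 CPM (-1.44 ± 0.07, adjusted p = 1.5e-10). The transcription factor gene Zbtb20 was at 5.89, 4.91 and 4.59 CPM against 13.4, 14.6 and 13.3 CPM (-1.42 ± 0.11, adjusted p = 1.5e-09). The remaining falls were Brinp2 (-1.74), Lrat, which esterifies retinol (-1.61), the mitochondrial carrier gene Slc25a30 (-1.39), Tceal1 (-1.38) and the ubiquitin ligase gene Trim50 (-1.29). In each of these genes the highest double knockdown library was below the lowest Btg2 knockdown library, which the choice of genes required.

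**Figure D3:**
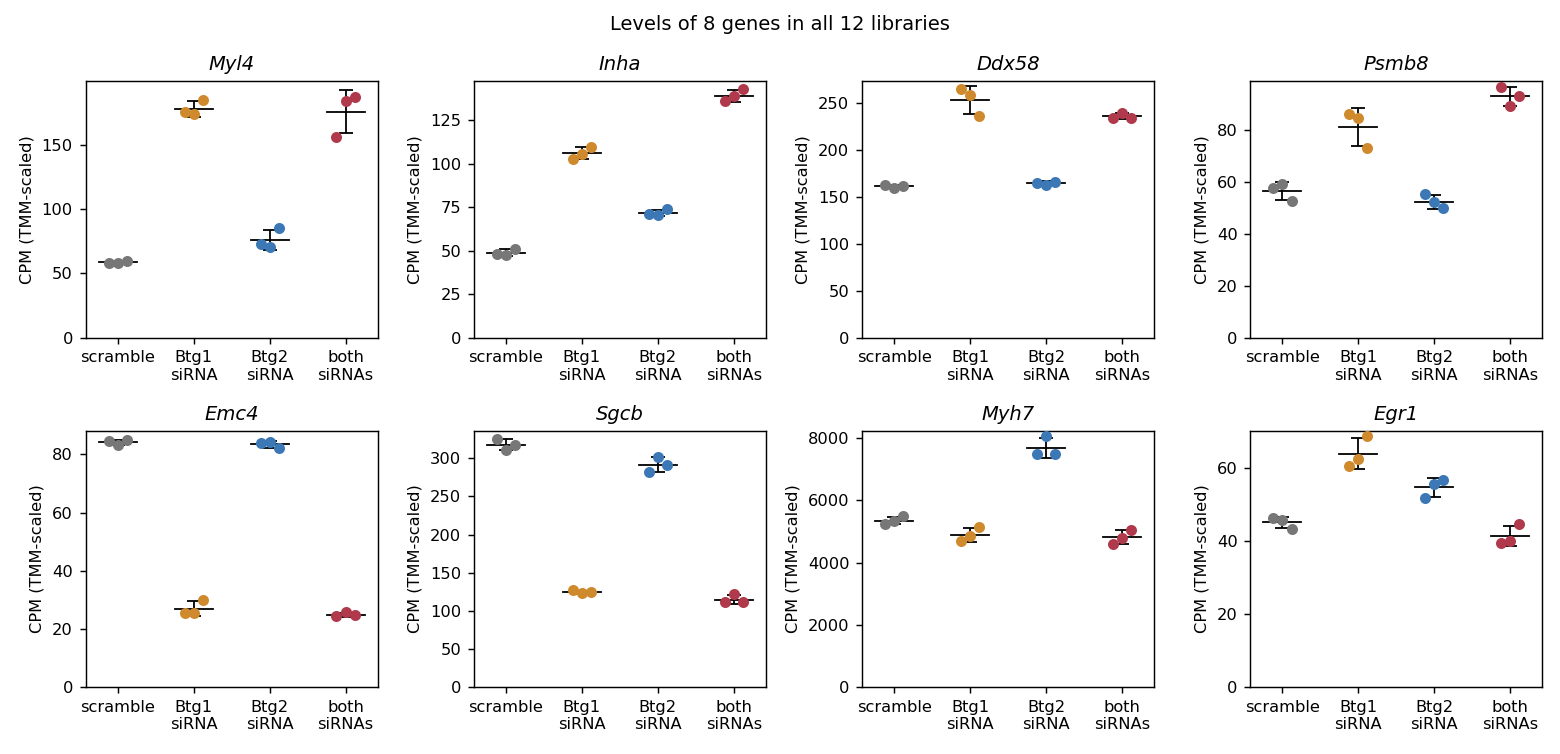
Levels of Myl4, Inha, Ddx58, Psmb8, Emc4, Sgcb, Myh7 and Egr1 in all 12 libraries, in TMM-scaled CPM on linear axes from 0. Points are libraries, lines means and bars SD (n = 3). Emc4 and Sgcb were low in both groups with the Btg1 siRNA, whereas Egr1 was lowered by it in the presence of the Btg2 siRNA and raised in its absence.

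Interferon-response genes rose together. Of 35 measured members of the list, 30 rose, 1 fell and 4 did not pass, with a median of 0.38 against 0.00 over all genes tested. The shares over all genes, 15.2% higher and 17% lower, are the background for this count and for those of the lists that follow. The 1 that fell was Ifit1, at 1.30, 1.38 and 1.31 CPM against 1.55, 2.61 and 2.00 CPM (-0.59 ± 0.21, adjusted p = 0.036). Its call was lost without replicate 2 or 3 of the Btg2 knockdown and without each double knockdown library (adjusted p = 0.061 to 0.18). Ddx58, the cytosolic RNA sensor RIG-I, was at 235, 240 and 234 CPM in the double knockdown and 165, 163 and 166 CPM in the Btg2 knockdown (0.52 ± 0.04, adjusted p = 9.5e-10). Rtp4, an interferon-induced gene, was at 156, 165 and 158 CPM against 87.6, 94.6 and 90.6 CPM (0.81 ± 0.06, adjusted p = 1.6e-09). No library of 1 group reached the level of the other for either gene. Oas1a, which makes the oligoadenylate that activates RNase L, was at 123, 121 and 124 CPM against 81.2, 87.0 and 82.9 CPM (0.55 ± 0.04, adjusted p = 2.1e-09). Oas1a has close copies in the rat genome, and how reads shared between copies were counted is not given. Ifi35 rose by 0.50 ± 0.05 (adjusted p = 1.4e-08). The Btg1 siRNA added to scramble gave 31 rises in the same list, and the difference between the 2 backgrounds passed the test for 5 members, 1 higher and 4 lower with the Btg2 siRNA.

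The genes that load peptides on MHC class I molecules, many of which interferon induces, moved the same way. Of 12 measured members 9 rose and 3 did not pass, with a median of 0.23. Psmb8, an immunoproteasome subunit, was at 96.5, 89.3 and 93.2 CPM against 55.2, 52.2 and 49.9 CPM (0.83 ± 0.06, adjusted p = 6.5e-10). Psmb9, another such subunit, was at 67.5, 69.5 and 77.3 CPM against 52.1, 46.8 and 47.0 CPM (0.55 ± 0.07, adjusted p = 3.5e-06). The antigen transporter gene Tap2 was at 82.4, 79.1 and 87.0 CPM against 61.8, 57.5 and 58.7 CPM (0.48 ± 0.05, adjusted p = 2e-07). Tapbp, which encodes tapasin and bridges that transporter to MHC class I, was at 265, 241 and 261 CPM against 197, 192 and 179 CPM (0.43 ± 0.05, adjusted p = 4.7e-07). The groups were separate for all 4 genes. For Psmb8 and Tap2 the rise was larger here than against scramble, by 0.31 ± 0.09 (adjusted p = 0.018) and 0.28 ± 0.07 (adjusted p = 0.011).

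Interferon-induced genes are bound through the interferon-stimulated response element, so their promoters were searched for its core letters, GAAANNGAA, on both strands. Overlapping matches were each counted. The windows held 300 bases, 250 before and 50 after the start site of each gene, from RefSeq on the rat build GRCr8, which is not the build of the deposited counts. The letters were present in 17 of 25 interferon-list promoters (68.0%) and 6 of 11 of the MHC class I list (54.5%). They were in 9.5% of the 27457 rat promoters in that table, 7.29% of 10063 tested genes, 8.84% of those called higher and 5.59% of those called lower. Among interferon-list genes that rose the share was 15 of 23 (65.2%). That list was made of genes known to respond to interferon, so its share describes the list and not these libraries. The 3 named genes with a match upstream of the start site are shown with the 100 bases before it, in the direction of transcription, with the matches in capitals, because these 2 lists had the largest shares of rises. The Oas1a stretch is at chr12:41330366-41330465 on the plus strand, that of Tap2 at chr20:4652297-4652396 and that of Tapbp at chr20:4967878-4967977, both on the minus strand, all of GRCr8.
Oas1a: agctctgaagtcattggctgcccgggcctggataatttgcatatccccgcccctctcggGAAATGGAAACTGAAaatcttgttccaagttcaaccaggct
Tap2: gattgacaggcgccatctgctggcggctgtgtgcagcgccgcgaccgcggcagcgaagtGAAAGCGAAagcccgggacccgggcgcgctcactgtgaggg
Tapbp: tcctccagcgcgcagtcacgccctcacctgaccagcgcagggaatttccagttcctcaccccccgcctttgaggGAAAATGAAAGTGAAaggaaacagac
Oas1a and Tapbp have 2 overlapping matches each and Tap2 has 1. A match is a run of letters and was not tested as a binding site. Psmb8 had 1 match after the start site, and Ifi35 and Psmb9 had none in this window. Ddx58 and Rtp4 had no promoter among those searched.

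Of 26 measured inflammatory cytokine and chemokine genes 3 rose and 2 fell, which is 19.2% called against 32.2% of all genes. Without replicate 1 of the double knockdown 8 passed, 3 higher and 5 lower. The chemokine gene Ccl5 was at 21.2, 17.5 and 20.3 CPM against 12.3, 12.1 and 9.71 CPM (0.80 ± 0.09, adjusted p = 4.3e-07). Csf1, the macrophage growth factor, was at 210, 201 and 181 CPM against 281, 301 and 306 CPM (-0.59 ± 0.05, adjusted p = 4.5e-09). Ccl3, another chemokine gene, rose by 0.70 ± 0.19 (adjusted p = 0.010). Ptgs2, an inducible cyclooxygenase, was at 59.8, 39.1 and 32.6 CPM against 77.0, 84.6 and 56.6 CPM, where 1 double knockdown library lay above the lowest Btg2 knockdown library (-0.73 ± 0.24, adjusted p = 0.048). Its call was lost without replicate 1 or 2 of the Btg2 knockdown or replicate 2 or replicate 3 of the double knockdown (adjusted p = 0.12 to 0.14), with only the groups compared (0.17), with library size alone (0.053) and with no filter (0.061). The adhesion gene Vcam1 rose by 0.25 ± 0.06 (adjusted p = 0.0017) and fell by 0.18 ± 0.06 on the log2 scale when the Btg1 siRNA was added to scramble.

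Of 38 measured G2/M and mitosis genes 4 rose, 1 fell and 33 did not pass, with a median of 0.02. The share called was 13.2%, against 32.2% of all genes. Cenpf, a kinetochore protein, was at 23.1, 24.9 and 22.3 CPM against 15.3, 16.9 and 17.7 CPM (0.50 ± 0.07, adjusted p = 1.6e-05). Kif23, a motor of cytokinesis, was at 8.19, 9.01 and 9.03 CPM against 11.4, 12.4 and 13.7 CPM (-0.52 ± 0.11, adjusted p = 0.00073). The groups did not overlap in either gene. Added to scramble, the Btg1 siRNA gave 24 rises in this list. The difference between backgrounds was significant for 8 members, all lower with the Btg2 siRNA. The other rises here were the mitotic kinase genes Ttk (0.40) and Aurka (0.32) and the checkpoint gene Bub3 (0.13). Without replicate 1 of the Btg2 knockdown 3 members of the list were called, with Aurka and Ttk lost (adjusted p = 0.059 and 0.063). Without replicate 2 of the double knockdown Ttk (0.054) and Bub3 (0.091) were lost, and Bub3 also without replicate 2 of the Btg2 knockdown (adjusted p = 0.17).

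The D-type cyclins, which drive entry into S phase, all fell. Ccnd3 was at 129, 129 and 139 CPM against 229, 221 and 219 CPM (-0.75 ± 0.04, adjusted p = 5.7e-12). Ccnd2 was at 87.5, 79.0 and 76.4 CPM against 117, 115 and 109 CPM (-0.49 ± 0.05, adjusted p = 3.1e-08), and Ccnd1 at 122, 109 and 114 CPM against 160, 149 and 151 CPM (-0.42 ± 0.05, adjusted p = 3.2e-07). For all 3 cyclins the double knockdown libraries were the lower ones without exception. Against scramble Ccnd3 also fell, by 0.70 ± 0.04 on the log2 scale, whereas Ccnd2 rose by 0.20 ± 0.05 (adjusted p = 0.0013). E2f3, a transcription factor of S phase genes, fell by 0.80 ± 0.11 on the log2 scale (adjusted p = 2.8e-06). The G1/S and DNA replication list as a whole had 4 rises and 6 falls among 42 measured, against 19 rises and 4 falls when the Btg1 siRNA was added to scramble. The rises were Ccne1, cyclin E1 (0.45 ± 0.08, adjusted p = 0.00024), its kinase Cdk2 (0.24), the primase gene Prim1 (0.21) and the helicase subunit gene Mcm3 (0.19). Mcm4 and Mcm7, subunits of the same helicase, were among the falls (-0.28 ± 0.06, adjusted p = 0.0011, and -0.22 ± 0.06, adjusted p = 0.0040). The Mcm3 call was lost without replicate 1 or 3 of the Btg2 knockdown or 2 or 3 of the double knockdown (adjusted p = 0.052 to 0.16), and that of Prim1 without replicate 2 or 3 of the Btg2 knockdown or replicate 2 of the double knockdown (adjusted p = 0.078 to 0.24).

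Among 9 measured CDK inhibitors and pocket proteins 2 rose and 2 fell. Cdkn1c, an imprinted inhibitor of cyclin-dependent kinases, was at 39.9, 39.8 and 40.2 CPM against 32.4, 31.4 and 28.7 CPM (0.37 ± 0.06, adjusted p = 5.1e-05). Cdkn1a, which encodes p21, rose by 0.14, while Cdkn1b, which encodes p27, fell by 0.18 on the log2 scale and Cdkn2b by 0.13. The count of 4 became 1 without replicate 3 of the Btg2 knockdown and 2 without replicate 3 of the double knockdown. Cdkn1b was lost in both cases (adjusted p = 0.056 and 0.059), Cdkn2b in the first (0.056), and Cdkn1a in both and without replicate 2 of the Btg2 knockdown or replicate 1 of the double knockdown (adjusted p = 0.063 to 0.077). Of 23 measured p53 targets 2 rose, Cdkn1a and Pidd1 (0.28), and 7 fell. The Pidd1 call was lost without replicate 2 of the Btg2 knockdown (adjusted p = 0.072) or replicate 1 of the double knockdown (0.086). Ccng1, a p53-induced cyclin, was at 676, 705 and 652 CPM against 864, 905 and 879 CPM (-0.38 ± 0.04, adjusted p = 1e-07), Zmat3 fell by 0.38 ± 0.05 on the log2 scale, and the growth-arrest gene Gadd45a by 0.36 ± 0.05. Rrm2b, the p53-induced ribonucleotide reductase subunit, fell by 0.71 ± 0.11. Of 16 measured DNA repair genes 1 rose and 1 fell, the latter being the damage kinase gene Atm (-0.26 ± 0.06, adjusted p = 0.0023), whose call was lost with limma on log2(TPM + 1) (adjusted p = 0.079) and log2(TPM + 0.1) (0.090). The count of DNA repair genes was 1 without replicate 1 of the Btg2 knockdown or replicate 2 of the double knockdown.

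Of 13 measured genes in the list of CCR4-NOT and PAN deadenylases, 1 rose and 1 fell, a share below the 32.2% of all genes. Cnot9 was at 41.9, 40.0 and 39.7 CPM against 34.9, 37.1 and 35.4 CPM (0.18 ± 0.05, adjusted p = 0.0081). Cnot6, a catalytic subunit, was at 68.7, 70.6 and 57.6 CPM against 74.5, 73.6 and 77.8 CPM (-0.20 ± 0.06, adjusted p = 0.012). The Cnot6 change rested on replicate 3 of the double knockdown, which was the lowest library. Without it the change was -0.11 (adjusted p = 0.080), and without replicate 3 of the Btg2 knockdown -0.17 (adjusted p = 0.061), each leaving 1 member called.

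The myosin heavy chain isoforms moved in opposite directions. Myh7, the slow beta-myosin heavy chain that rodent ventricles express before birth and under load, was at 4605, 4796 and 5051 CPM in the double knockdown and 7506, 8064 and 7497 CPM in the Btg2 knockdown (-0.67 ± 0.05, adjusted p = 2.7e-10). Myh6, the alpha isoform of the adult rodent ventricle, was at 10064, 9825 and 10132 CPM against 7996, 8459 and 8067 CPM (0.29 ± 0.05, adjusted p = 2.9e-05). Both pairs of groups were separate. On the deposited TPM scale, which allows for length, the mean level of Myh6 was 2712 and of Myh7 2552 TPM in the Btg2 knockdown, and 3361 and 1618 TPM in the double knockdown. The 2 genes are similar in sequence, and how reads matching both were counted is not given. Myl7, the atrial regulatory light chain, was at 51.2, 58.0 and 67.9 CPM against 40.4, 44.5 and 40.3 CPM (0.51 ± 0.08, adjusted p = 0.00011), which with Myl4 made 2 rises of light chains found in atrial muscle.

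Of 25 measured sarcomere genes 6 rose and 2 fell, and the 32% called is near the 32.2% of all genes. Beside Myh7 the fall was Myom2, a myomesin of the M-band, at 37.8, 38.1 and 44.3 CPM against 70.2, 68.5 and 79.5 CPM (-0.86 ± 0.13, adjusted p = 0.00062), with the groups far apart. The Btg1 siRNA added to scramble gave 17 rises and 2 falls in that list, and the effects differed for 16 members, 1 higher and 15 lower with the Btg2 siRNA. The 7 measured atrial markers had a median of -0.23, with 2 higher and 3 lower at an unadjusted p below 0.05 in edgeR. Past the threshold 2 rose (Myl4 and Myl7) and 1 fell, and the atrial ligand gene Bmp10 had 0 counts in the 6 libraries. The one that fell was Nppa, the atrial natriuretic peptide, at 2082, 2139 and 2207 CPM against 2525, 2988 and 2375 CPM (-0.30 ± 0.08, adjusted p = 0.015). Replicate 2 of the Btg2 knockdown was the highest Nppa library. The Nppa call was lost without replicate 1 (adjusted p = 0.052) or replicate 2 (adjusted p = 0.056) of the double knockdown and with no filter on low counts (adjusted p = 0.057).

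Hypertrophic and stretch markers fell or did not pass: of 12 measured, 6 fell (median -0.26), while 0 rose past the threshold and 0 rose at an unadjusted p below 0.05 in edgeR. An edgeR fit of only the groups compared called 7, of which 1 rose. Rcan1, a target of calcineurin signalling, was at 576, 544 and 602 CPM against 726, 740 and 721 CPM (-0.34 ± 0.05, adjusted p = 4.2e-05). Ankrd1, a stretch-responsive cardiac ankyrin repeat protein, was at 3284, 2978 and 2949 CPM against 3681, 4057 and 3645 CPM (-0.31 ± 0.06, adjusted p = 0.00063). All double knockdown libraries were below all Btg2 knockdown libraries for both. Mustn1 fell by 0.61 ± 0.16 on the log2 scale from low levels (adjusted p = 0.0047). Added to scramble, the same siRNA raised Rcan1 by 0.29 ± 0.05 and Ankrd1 by 0.27 ± 0.06, and the effects on these genes differed by -0.64 ± 0.08 and -0.57 ± 0.09 (adjusted p = 6.7e-06 and 0.00011).

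Of 18 measured calcium-handling genes 7 fell and 2 rose, and the median change was -0.20. The share called was 50%, where 17% of all genes were called lower and 15.2% higher. Ryr2, the calcium release channel of the sarcoplasmic reticulum, was at 855, 869 and 830 CPM against 1165, 1141 and 1179 CPM (-0.45 ± 0.04, adjusted p = 7.8e-09). Pln, phospholamban, the inhibitor of the calcium pump, was at 972, 1001 and 987 CPM against 1242, 1303 and 1231 CPM (-0.35 ± 0.04, adjusted p = 1.9e-07). The groups did not overlap for either gene. The calcium channel subunit gene Cacna2d1 fell by 0.46 ± 0.05 on the log2 scale (adjusted p = 7.6e-08) and rose by 0.50 ± 0.05 against scramble, and Asph, which encodes the junctional protein junctin among its products, fell by 0.79 ± 0.09 (adjusted p = 2.1e-07). The rises were Hrc, a calcium-binding protein of the sarcoplasmic reticulum (0.33 ± 0.05, adjusted p = 4.4e-05), and the calsequestrin gene Casq2 (0.16), whose call was lost without replicate 1 of the Btg2 knockdown (adjusted p = 0.069) or replicate 2 of the double knockdown (0.064).

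Of 25 measured genes for ion channels, the sodium pump and connexins, 12 fell and 4 rose. Added to scramble, the Btg1 siRNA also gave 12 falls and 4 rises, but not all in the same genes. Kcnj8 and Kcnh2, which rose here, did not pass the test against scramble (adjusted p = 0.81 and 0.51). The difference between backgrounds passed the test for 1 member higher and 3 lower with the Btg2 siRNA. Atp1b2, a sodium pump beta subunit, was at 73.4, 73.1 and 72.4 CPM against 175, 181 and 172 CPM (-1.27 ± 0.06, adjusted p = 1.8e-11). Atp1b2 was left at 41.5% of its Btg2 knockdown level, and its 3 double knockdown libraries were close to one another. Gja1, connexin 43 of the ventricular gap junction, was at 1054, 1042 and 999 CPM against 1406, 1433 and 1366 CPM (-0.44 ± 0.04, adjusted p = 4.8e-08), and Gja5, the connexin of the conduction system, fell by 0.45 ± 0.07 on the log2 scale (adjusted p = 1.3e-05). Rises included the potassium channel genes Kcnj8 (0.28) and Kcnh2 (0.18) and the connexin gene Gjc1 (0.20). The Kcnj8 call was lost without replicate 1 or 3 of either group (adjusted p = 0.056 to 0.17), and that of Gjc1 without replicate 1 or 2 of the Btg2 knockdown or replicate 3 of the double knockdown (adjusted p = 0.063 to 0.11).

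The dystrophin-glycoprotein complex links the cytoskeleton of muscle to the matrix. Of 12 measured members 5 fell and 1 rose. Beside Sgcb, Sspn, sarcospan, was at 341, 367 and 357 CPM against 565, 602 and 602 CPM (-0.73 ± 0.04, adjusted p = 3.5e-12). Dmd, dystrophin itself, was at 178, 185 and 158 CPM against 204, 207 and 211 CPM (-0.26 ± 0.05, adjusted p = 0.00047), and its homologue Utrn fell by 0.26 ± 0.05 on the log2 scale (adjusted p = 0.00012). The syntrophin gene Sntb2 fell by 0.47 ± 0.13 (adjusted p = 0.0084), and alpha-sarcoglycan, Sgca, rose by 0.25. Sgcb and Sspn also fell against scramble, by 1.35 ± 0.04 and 0.84 ± 0.04. Dmd and Utrn rose against scramble, by 0.21 ± 0.05 and 0.15 ± 0.05, and their effects differed between backgrounds (-0.47 ± 0.07 and -0.41 ± 0.06, each adjusted p = 9.8e-05).

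Within the 10 measured subunits of the ER membrane protein complex, Emc4 alone fell and 2 rose. Emc1, its largest subunit, was at 139, 131 and 134 CPM against 119, 115 and 117 CPM (0.20 ± 0.04, adjusted p = 0.00028), and Emc7 rose by 0.14, a call lost without replicate 1 or 2 of the Btg2 knockdown or replicate 2 of the double knockdown (adjusted p = 0.053 to 0.094). Of 28 measured genes of the unfolded protein and stress response 12 fell and 2 rose, with a median of -0.11. Atf6, an ER stress sensor, was at 36.5, 41.1 and 37.0 CPM against 58.5, 61.0 and 57.7 CPM (-0.63 ± 0.05, adjusted p = 5.2e-09). Calr, the ER chaperone calreticulin, was at 1086, 1037 and 1000 CPM against 1402, 1445 and 1395 CPM (-0.44 ± 0.04, adjusted p = 1.2e-08). The groups were separate for both. Sel1l, a component of ER-associated degradation, fell by 0.39 ± 0.04 on the log2 scale, and Atf4, the effector of the integrated stress response, by 0.25 ± 0.04. The 2 rises were the ER co-chaperones Dnajb9 (0.34) and Dnajb11 (0.14). The count of falls was 7 with library size alone and with limma on log2(TPM + 1).

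**Figure D4:**
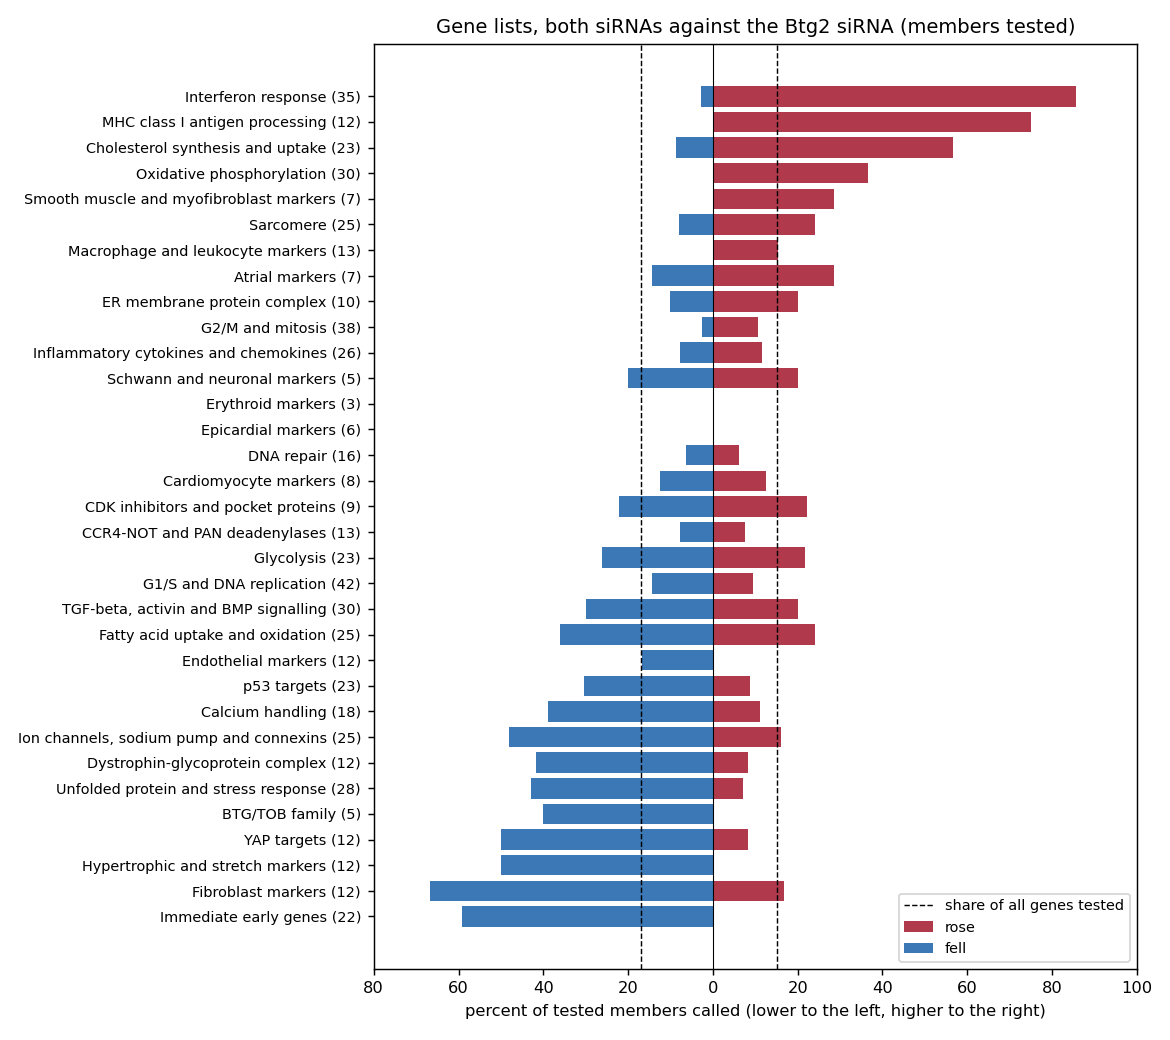
Percent of the measured members of each of 33 gene lists that were called lower (blue, to the left) or higher (red, to the right) in the double knockdown, with the number measured in parentheses. Dashed lines mark the shares over all genes tested, 15.2% higher and 17% lower; the interferon list extends farthest to the right.

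Immediate early genes, the first transcription factors induced by growth and stress signals, fell: of 22 measured 13 fell and 0 rose (0 also at an unadjusted p below 0.05 in edgeR), with a median of -0.20. Egr1 was at 39.5, 40.2 and 44.6 CPM in the double knockdown and 51.8, 55.6 and 56.7 CPM in the Btg2 knockdown (-0.40 ± 0.06, adjusted p = 1.2e-05). Klf4 was at 57.3, 58.7 and 59.0 CPM against 89.7, 93.6 and 94.8 CPM (-0.67 ± 0.05, adjusted p = 1.5e-10). Nr4a1, an orphan nuclear receptor, was at 26.8, 23.2 and 24.1 CPM against 37.1, 35.2 and 32.2 CPM (-0.50 ± 0.07, adjusted p = 1.3e-05). Each gene was lower in all 3 double knockdown libraries than in any Btg2 knockdown library. The related Nr4a2 fell by 1.12 ± 0.17 from 4.88 CPM (adjusted p = 2e-05). Against scramble the Btg1 siRNA gave 10 rises and 4 falls in this list, Egr1 and Nr4a1 among the rises (0.50 ± 0.06 and 0.49 ± 0.07). The effects differed between backgrounds for 14 of the 22 members, all lower with the Btg2 siRNA.

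YAP is the transcriptional coactivator of the Hippo pathway. Among its 12 measured targets 6 fell and 1 rose (median -0.23). Crim1, a transmembrane BMP antagonist, was at 52.4, 51.9 and 50.9 CPM against 109, 103 and 95.9 CPM (-0.99 ± 0.05, adjusted p = 3.9e-12), and against scramble it changed by -0.06 ± 0.05 (adjusted p = 0.41). Nt5e, the ectoenzyme that makes adenosine, fell by 0.77 ± 0.09 on the log2 scale, and Lats2, a Hippo kinase, by 0.33 ± 0.04. Ajuba, an inhibitor of the LATS kinases, rose by 0.37 ± 0.05 (adjusted p = 2.2e-06).

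Among 30 measured genes of TGF-beta, activin and BMP signalling 6 rose and 9 fell. Of the ligands and their partners, Inha rose (0.95). Bmp7 (0.29), Fstl3 (0.29), Gdf11 (0.26) and Tgfb3 (0.25) rose by less (adjusted p = 0.00052 to 0.0059). Inhbb, an activin subunit, was at 6.52, 6.32 and 6.52 CPM against 11.6, 8.94 and 10.6 CPM (-0.70 ± 0.12, adjusted p = 7.3e-05). Of the receptors, Bmpr1a was at 137, 126 and 117 CPM against 154, 162 and 160 CPM (-0.32 ± 0.05, adjusted p = 1.4e-05) and Bmpr2 at 112, 99.6 and 92.3 CPM against 124, 132 and 131 CPM (-0.35 ± 0.05, adjusted p = 1.8e-05). Both receptors were lower in every double knockdown library, and both rose when the same siRNA was added to scramble (0.31 ± 0.05 and 0.19 ± 0.05).

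Metabolic lists moved in different directions. Of 23 measured genes of cholesterol synthesis and uptake 13 rose and 2 fell, with a median of 0.18. Tm7sf2, a sterol reductase, was at 41.4, 39.3 and 42.3 CPM against 33.1, 30.2 and 30.9 CPM (0.38 ± 0.05, adjusted p = 6.9e-06), with no overlap. The falls were Lss, lanosterol synthase (-0.19), and the sterol carrier gene Stard4 (-0.24). Oxidative phosphorylation subunits showed 11 rises and 0 falls among 30 measured (0 falls also at an unadjusted p below 0.05), all of 0.10 to 0.19. Ndufv1 of complex I was at 479, 475 and 503 CPM against 444, 438 and 424 CPM (0.16 ± 0.04, adjusted p = 0.0016), and Uqcrc1 of complex III rose by 0.18 ± 0.04. Against scramble 1 of these subunits was called, lower, but the difference between backgrounds passed the edgeR test for 0 of the 30 (5 at an unadjusted p below 0.05).

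Of 25 measured genes of fatty acid uptake and oxidation 9 fell and 6 rose. Cpt1a, which commits fatty acids to mitochondrial oxidation, was at 103, 111 and 105 CPM against 144, 139 and 146 CPM (-0.42 ± 0.04, adjusted p = 8.8e-08). The uptake genes Fabp3 and Cd36 fell by 0.34 ± 0.05 and 0.26 ± 0.04 on the log2 scale. Ppargc1b, a coactivator of mitochondrial biogenesis, fell by 0.41 ± 0.06 here and rose by 0.50 ± 0.06 against scramble. Of 23 measured glycolysis genes 5 rose and 6 fell: Pfkp, a phosphofructokinase, was at 608, 623 and 630 CPM against 483, 467 and 464 CPM (0.40 ± 0.04, adjusted p = 2.3e-08), and Hk2, a hexokinase, at 80.9, 76.0 and 73.2 CPM against 108, 108 and 106 CPM (-0.48 ± 0.05, adjusted p = 1.1e-07). These groups were separate. The other rises were the phosphofructokinase genes Pfkm (0.24) and Pfkl (0.17), the lactate transporter gene Slc16a3 (0.29) and Gapdh (0.14), whose call was lost without replicate 1 or 3 of either group (adjusted p = 0.058 to 0.17).

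Some markers of other cell types also passed the test. In bulk RNA, fewer cells of a type and less of its RNA per cell cannot be told apart. Of 12 measured fibroblast markers 8 fell and 2 rose, and their summed level was 13256 to 14369 CPM in the double knockdown against 16105 to 16992 CPM in the Btg2 knockdown. Col1a2, a chain of type I collagen, was at 2751, 2637 and 2653 CPM against 3610, 3580 and 3534 CPM (-0.42 ± 0.05, adjusted p = 1.2e-06). Col1a1 fell by 0.38 ± 0.06 on the log2 scale and the collagen receptor gene Ddr2 by 0.39 ± 0.05. Without replicate 2 of the Btg2 knockdown 5 fibroblast markers fell and 0 rose. The 2 that rose were Fbln1, a matrix protein, at 0.44 ± 0.14, and Pdgfra, a growth factor receptor, at 0.13. The Fbln1 call was lost without replicate 2 or 3 of the Btg2 knockdown or replicate 1 or replicate 3 of the double knockdown (adjusted p = 0.086 to 0.12), and that of Pdgfra without replicate 2 or 3 of the Btg2 knockdown or replicate 1 of the double knockdown (adjusted p = 0.079 to 0.19). The part of this shift in the other falls was not tested.

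Of 12 measured endothelial markers 2 fell and 0 rose (5 fell and 0 rose at an unadjusted p below 0.05, edgeR), with a summed level of 220 to 237 CPM against 259 to 268 CPM. The share called was 16.7%, against 32.2% of all genes. Kdr, a VEGF receptor, was at 21.1, 23.6 and 18.95 CPM against 32.5, 28.5 and 28.2 CPM (-0.49 ± 0.07, adjusted p = 1.5e-05), and Flt1 fell by 0.51 ± 0.09. Without replicate 1 or replicate 3 of the double knockdown 5 and 4 endothelial markers fell. Of 13 measured macrophage and leukocyte markers 2 rose, and the summed level was 47.3 to 50.5 CPM against 42.9 to 44.0 CPM. That is 15.4% called, again below the 32.2% of all genes. Added to scramble, the Btg1 siRNA gave 0 rises and 4 falls in this list. Lyz2, lysozyme of myeloid cells, was at 10.9, 11.8 and 11.04 CPM against 9.18, 7.76 and 8.41 CPM (0.41 ± 0.13, adjusted p = 0.020), and its call was lost without replicate 2 (adjusted p = 0.078) or 3 (0.063) of the Btg2 knockdown or replicate 2 of the double knockdown (0.072). The count of macrophage markers ranged from 0 (without replicate 2 of either group) to 4 (without replicate 1 of the double knockdown). Leaving out any of the other 3 libraries gave 1. The second rise was Csf1r, the CSF1 receptor, at 3.35, 3.71 and 3.72 CPM against 2.51, 2.49 and 2.72 CPM (0.48 ± 0.17, adjusted p = 0.030), lost without replicate 1 or 2 of the Btg2 knockdown or 2 or 3 of the double knockdown (adjusted p = 0.072 to 0.083). The part of these cells in the rise of the interferon and MHC class I lists was not tested.

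Of 7 measured smooth muscle and myofibroblast markers 2 rose. Cnn1, calponin, was at 138, 154 and 144 CPM against 124, 129 and 118 CPM (0.23 ± 0.07, adjusted p = 0.019), a call lost without replicate 1 (adjusted p = 0.061) or 3 (0.080) of the Btg2 knockdown and without replicate 2 (0.094) or 3 (0.071) of the double knockdown. Desmin, Des, is also made by cardiomyocytes, so it does not mark these cells alone. It rose by 0.14, a call lost in the same 4 cases (adjusted p = 0.054 to 0.13). The count of these markers was 1 without replicate 3 of the Btg2 knockdown and 0 in the other 3 of these cases. Of 8 measured cardiomyocyte markers 1 rose (Myh6) and 1 fell (Ryr2). Of 5 measured Schwann and neuronal markers, Dbh, the noradrenaline-forming enzyme, rose from 21.9 ± 0.494 to 34.4 ± 1.87 CPM (SD, n = 3; 0.65 ± 0.06, adjusted p = 2.1e-08). S100b fell, from 1.75 ± 0.206 to 0.710 ± 0.0642 CPM (SD, n = 3; -1.32 ± 0.25, adjusted p = 0.00024), and did not pass the stricter filter on low counts. The edgeR test called 0 of 6 epicardial markers (1 higher and 1 lower at an unadjusted p below 0.05, 0 with DESeq2, 1 without replicate 2 of the double knockdown) and 0 of 3 erythroid markers (0 at an unadjusted p below 0.05, 0 with DESeq2).

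The same Btg1 siRNA added to scramble gave a second measure of its effect from 6 other libraries, with 4571 of 12535 genes called (36.5%), 18.7% higher and 17.8% lower. Of the genes called in either addition, 2362 were called in both, 2097 of them in the same direction (979 higher and 1118 lower). These were 51.9% of the calls described here and 45.9% of the calls against scramble. Across all 12535 genes the 2 effects had a Pearson correlation of 0.45 and a Spearman correlation of 0.41, a description with genes as points. The largest changes were mostly shared: all 15 of the largest rises were also called higher against scramble, and 14 of the 15 largest falls were also called lower, the exception being Zbtb20. Of the 634 genes changed at least 1.5-fold, 554 had the same sign against scramble and 409 were also called in that direction.

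The fall of Emc4 was -1.64 ± 0.05 against scramble and that of Sgcb -1.35 ± 0.04, and their effects differed between backgrounds by -0.10 ± 0.08 (adjusted p = 0.45) and 0.00 ± 0.06 (adjusted p = 0.98). Other large falls were deeper in the presence of the Btg2 siRNA. Prrg4 fell by 0.53 ± 0.08 on the log2 scale against scramble, a difference of -1.32 ± 0.11 (adjusted p = 3.7e-08). Zbtb20 was at 9.69, 7.78 and 7.81 CPM in the Btg1 knockdown and 9.08, 10.4 and 9.10 CPM in scramble, which overlap (-0.17 ± 0.11, adjusted p = 0.23), and its effects differed by -1.25 ± 0.16 (adjusted p = 6.6e-06). Colec12 fell more against scramble (-1.97 ± 0.09, difference 0.40 ± 0.13, adjusted p = 0.037). Of the rises, Snap91 was at 118, 121 and 138 CPM in the Btg1 knockdown and 23.5, 37.1 and 38.4 CPM in scramble, a larger rise than the one described here (difference -1.04 ± 0.22, adjusted p = 0.014).

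**Figure D5:**
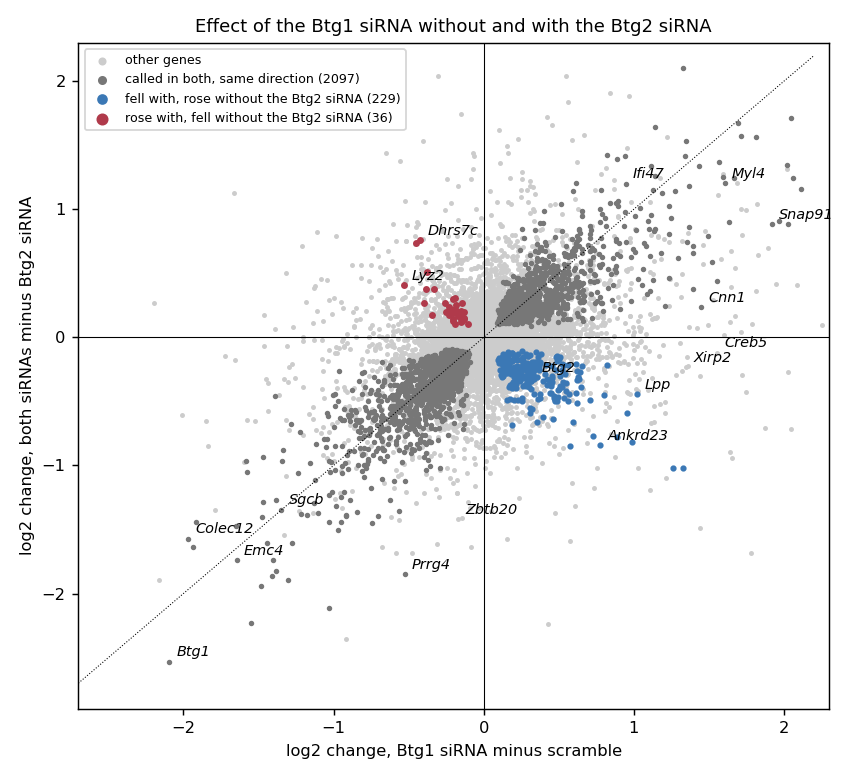
Log2 change with both siRNAs against the Btg2 siRNA (vertical axis) and with the Btg1 siRNA against scramble (horizontal axis), 1 point per gene tested; 10 genes lie outside the axes, and the dotted line marks equal effects. Dark grey points were called in both in the same direction (2097), blue points fell here and rose against scramble (229), and red points rose here and fell against scramble (36).

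The effect of the Btg1 siRNA differed between the 2 backgrounds in 1890 genes (15.1%), 626 more positive (4.99%) and 1264 more negative (10.1%) with the Btg2 siRNA. With library size alone these were 1004 and 1016, so the balance between directions depended on the scaling. The count of more positive differences was 367 without replicate 3 of the Btg1 knockdown and 369 without replicate 1 of scramble, with 990 and 956 more negative. The difference also went with gene length (Spearman correlation -0.20 across 10895 genes). In single libraries the correlation of gene length with the deviation from the mean level ran from 0.096 to 0.218 in the Btg2 knockdown and was 0.146, 0.021 and -0.12 in replicates 1 to 3 of the double knockdown. With the length trend removed 1850 genes differed.

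Opposite calls in the 2 additions were found for 265 genes, all of which passed the test of the difference, as such calls nearly ensure. Of these 229 fell here and rose against scramble, and 36 rose here and fell against scramble. The smaller count was 19 without replicate 3 of the Btg1 knockdown, 21 without replicate 1 of scramble, 23 without replicate 1 of the Btg2 knockdown and 63 with library size alone. Their median relative lengths were 1.39 and 0.894. With the length trend removed there were 202 and 50 such genes, so the imbalance was smaller but in the same direction. Ankrd23, a stretch-responsive ankyrin repeat protein, was at 5.79, 6.43 and 6.996 CPM against 10.8, 11.1 and 12.5 CPM here (-0.84 ± 0.13, adjusted p = 1.9e-05) and at 12.6, 11.04 and 14.8 CPM in the Btg1 knockdown against 6.20, 7.23 and 8.93 CPM in scramble (0.78 ± 0.12, adjusted p = 3e-05). The single knockdowns were thus the high groups for Ankrd23, and the double knockdown was near scramble. Prkaa2, the AMPK catalytic subunit of heart muscle, was at 105, 101 and 91.7 CPM against 144, 142 and 140 CPM here (-0.52 ± 0.05, adjusted p = 1e-08) and at 148, 147 and 146 CPM against 90.5, 96.9 and 98.9 CPM without the Btg2 siRNA (0.62 ± 0.05, adjusted p = 5e-10). Mib1, a ubiquitin ligase of Notch ligands, fell by 0.66 ± 0.06 on the log2 scale and rose by 0.60 ± 0.06 against scramble, and Ino80d, a chromatin remodeller subunit, fell by 0.77 ± 0.11 and rose by 0.73 ± 0.12.

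Among the genes with the most negative differences were some that barely changed here. Creb5, a transcription factor, was at 8.76, 9.54 and 8.91 CPM against 8.94, 11.3 and 9.59 CPM, which overlap (-0.12 ± 0.12, adjusted p = 0.49), and at 21.0, 18.4 and 26.1 CPM in the Btg1 knockdown against 6.56, 8.36 and 7.29 CPM in scramble (1.55 ± 0.12, adjusted p = 1.9e-09). Xirp2, an actin-binding protein of the intercalated disc, was at 296, 266 and 245 CPM against 274, 347 and 328 CPM (-0.23 ± 0.15, adjusted p = 0.29), and its effects differed by -1.58 ± 0.21 (adjusted p = 0.0014). F2rl1, a protease-activated receptor, changed by -0.04 ± 0.14 here (adjusted p = 0.85). Lpp, a focal adhesion protein, fell by 0.44 ± 0.10 on the log2 scale here and rose by 1.02 ± 0.10 against scramble.

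Among genes with an established symbol and a mean of at least 5 CPM over the 12 libraries, Dhrs7c had the most positive difference (1.18). This gene, a dehydrogenase of the sarcoplasmic reticulum, was at 5.002, 5.25 and 5.73 CPM against 2.59, 3.50 and 3.45 CPM (0.76 ± 0.16, adjusted p = 0.00060) and fell by 0.42 ± 0.14 against scramble (adjusted p = 0.023). The glutathione transferase gene Gstm7 rose by 0.55 ± 0.12, the hydrolase gene Cmbl by 0.56 ± 0.12 and Tmod4, a tropomodulin that caps actin filaments, by 0.65 ± 0.12, and none of these 3 passed the test against scramble. Mmp12, a macrophage metalloelastase, was at 15.8, 15.5 and 16.2 CPM against 13.4, 10.3 and 12.5 CPM (0.38 ± 0.10, adjusted p = 0.0075), and Chi3l1, a secreted chitinase-like protein, at 65.8, 59.2 and 63.1 CPM against 54.2, 46.7 and 54.6 CPM (0.27 ± 0.06, adjusted p = 0.00072). Both fell against scramble, by 0.33 ± 0.10 and 0.40 ± 0.05. The chemokine gene Cxcl3 was at 53.8, 38.3 and 39.2 CPM against 35.8, 34.4 and 29.8 CPM (0.39 ± 0.15, adjusted p = 0.064), and replicate 1 of the double knockdown was its highest library.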

How the data were processed

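RNA of 12 samples was sequenced. Per the labels' protocols, total RNA was amplified, made into Nextera XT libraries and read in pairs on an Illumina instrument. Per the submitters' processing notes, STAR and featureCounts were used with FastQC, cutadapt and Trim Galore, and the genome build was rn5. Tool versions, annotation, strand setting and the handling of shared reads were not given in the sources used here, so reads of overlapping or antisense genes cannot be told apart. The authors deposited raw counts per gene for 17419 symbols and a table of TPM values.

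Counts were tested with edgeR 4.0.16 (quasi-likelihood F test, robust, TMM scaling, factors 0.971 to 1.02) under R 4.3.3, in 1 fit of all 12 libraries with 1 mean per group and 8 residual degrees of freedom. After filterByExpr 12535 genes were tested and 4884 were not. The contrasts were double minus Btg2 knockdown, Btg1 knockdown minus scramble, and the difference of those 2. SE are the log2 change divided by the square root of F. The common biological coefficient of variation was 4.97%, and the step was tested on simulated data. Total counts set the precision, and amplified reads without molecular identifiers are not independent molecules. Replicates differed by more than sampling noise (chi-square per degree of freedom 5.81 to 25.7), so no pair was treated as 1 library deposited more than once; this cannot show whether they came from separate RNA samples. Relative gene lengths came from the ratio of deposited counts to TPM.

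The samples, genes and the 33 lists were chosen with earlier results of these data known. Named genes were the 2 targets, the 15 largest other rises and falls (called, at least 5 CPM, no overlap, established symbol), members with the smallest p in each list, and the 6 largest differences between backgrounds and 4 opposite calls each way (at least 5 CPM over all libraries, established symbol). Members that complete counts of 5 or fewer, and Btg3, Tob1 and Tob2, were named after their values were seen, and some genes that this rule names are left out here. Alternatives were DESeq2 1.42.0, scaling by library size alone or by RLE, a filter of 1 CPM in 6 libraries or none, only the groups compared, a replicate block, limma 3.58.1 on log2(TPM + 1) and log2(TPM + 0.1), and each library left out. Removal of the length trend and the count of opposite calls under these settings were chosen after seeing the data.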

Additional observations from a re-analysis of the deposited data

Results flagged for a closer look

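Each value below is the effect of the Btg1 siRNA in the presence of the Btg2 siRNA minus its effect against scramble, on the log2 scale, for named genes in which edgeR's test of that difference passed at an adjusted p of 0.05. The targets were Btg1 at -0.44 and Btg2 at -0.65. Among the largest rises and falls the differences were -0.40 for Myl4, 0.52 for Baalc, 0.52 for Tecrl, -1.04 for Snap91, -1.32 for Prrg4, 0.40 for Colec12, -0.53 for Cd55, -0.71 for Bdnf, -0.49 for Dpysl3, -1.25 for Zbtb20, -0.69 for Vwa1 and -0.47 for Slc25a30.

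Among genes with an established symbol and a mean of at least 5 CPM over all 12 libraries, the most positive differences were Dhrs7c at 1.18, Lyz2 at 0.94, Gstm7 at 0.78, Cmbl at 0.76, Tmod4 at 0.74 and Cxcl3 at 0.72 (adjusted p = 0.042). The Cxcl3 difference missed the threshold without each scramble library, without replicate 1 or 3 of the Btg1 knockdown, without each Btg2 knockdown library, with no filter and with the length trend removed (adjusted p = 0.063 to 0.099). Under the same limits the most negative were Creb5 at -1.68, Ankrd23 at -1.62, Xirp2 at -1.58, Ino80d at -1.502, Lpp at -1.46 and F2rl1 at -1.35. Genes called in opposite directions also included Mmp12 at 0.71, Chi3l1 at 0.67, Mib1 at -1.26 and Prkaa2 at -1.14.

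In cell cycle and deadenylase lists the differences were -0.29 for Cnot6, -0.69 for Ccnd2, -0.24 for Ccnd1, -0.50 for E2f3, -0.22 for Cdkn2b, 0.20 for Cdkn1a, -0.40 for Atm, -0.23 for Zmat3 and -0.21 for Gadd45a. Mcm4 had -0.28. Among contractile and hypertrophic genes they were -0.55 for Myh7, 0.20 for Myh6, -0.87 for Myom2, -0.64 for Rcan1, -0.57 for Ankrd1 and -0.58 for Nppa. Among genes of calcium handling and the dystrophin complex they were -0.25 for Ryr2, -0.96 for Cacna2d1, -0.36 for Asph, 0.32 for Hrc, -0.41 for Utrn, -0.47 for Dmd and -0.94 for Sntb2.

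Among ER genes the differences were -0.23 for Emc1, 0.22 for Emc7, -0.34 for Atf6 and -0.20 for Sel1l. Immune genes had 0.31 for Psmb8, 0.28 for Tap2, 0.26 for Csf1, 0.44 for Vcam1, 0.82 for Csf1r and -1.54 for Ifit1, the last 2 of which average below 5 CPM. Signalling genes had -0.90 for Egr1, -0.98 for Nr4a1, -0.93 for Crim1, -0.17 for Lats2, -0.63 for Bmpr1a and -0.54 for Bmpr2. Bmp7 had -0.56, Fstl3 -0.36 and Tgfb3 -0.28. Metabolic genes had -0.37 for Stard4, -0.90 for Ppargc1b and -0.18 for Pfkp. Genes of the fibroblast and smooth muscle lists had -0.34 for Ddr2, 0.27 for Pdgfra, -1.21 for Cnn1 and -0.24 for Des, which cardiomyocytes also make. A difference was called in 15.1% of all genes tested, 10.1% negative and 4.99% positive, and with library size alone 1016 were negative and 1004 positive.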

How the results depend on the processing

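The 4039 genes changed, the 4571 against scramble, the 1890 that differed and the 265 opposite calls stayed within 1.5 times of these counts under every alternative run. DESeq2 called 4145 genes (2026 higher and 2119 lower) and 2131 differences. The 634 genes changed at least 1.5-fold became 342 with limma on log2(TPM + 1), a scale that shrinks the change of low genes. The difference between backgrounds was not run with only the groups compared.

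Among list counts, limma on both TPM scales called 1 deadenylase gene, 2 CDK inhibitors and 9 unfolded protein and stress response genes, and library size alone also called 9 of the latter. Only the groups compared gave 1 DNA repair gene, and a filter of 1 CPM in 6 libraries left 1 Schwann and neuronal marker called, since it removed S100b. The cause of the other shifts was not tested. The change of F2rl1, which did not pass the test, was -0.04 and ran from -0.11 to 0.015 when single libraries were left out, above 0 without replicate 3 of the Btg2 knockdown (0.014) or replicate 2 of the double knockdown (0.015). Cxcl3 passed the test in the double knockdown with DESeq2 (adjusted p = 0.037), library size alone (0.046), limma on log2(TPM + 1) (0.044) and on log2(TPM + 0.1) (0.049), and without replicate 2 of the double knockdown (0.048).

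Leaving out 1 library at a time gave 3353 to 3820 genes changed, 575 to 622 changed at least 1.5-fold, 3716 to 4050 against scramble, 1325 to 1850 differences and 206 to 279 opposite calls. List counts ranged from 1 to 2 for deadenylases, 3 to 6 for G2/M and mitosis, 1 to 4 for CDK inhibitors, 1 to 2 for DNA repair, 4 to 8 for inflammatory genes, 5 to 9 for fibroblast, 2 to 5 for endothelial, 0 to 2 for smooth muscle, 0 to 4 for macrophage and 0 to 1 for epicardial markers. Of 152 named genes called in the double knockdown, 127 kept the call and direction in every alternative run and 25 lost it in at least 1. Alternatives are not given here for Mcm4, Mcm7, Bmp7, Fstl3, Gdf11 and Tgfb3. Beside the losses given with each gene, only the groups compared lost Bub3, Mcm3, Prim1, Kcnj8, Ifit1 and Pdgfra (adjusted p = 0.052 to 0.073). Limma on both TPM scales lost Cnot6, Cdkn1b, Cdkn2b and Pdgfra (adjusted p = 0.058 to 0.080), and on log2(TPM + 0.1) Pidd1 (0.051). Library size alone lost Cdkn2b (0.084), no filter Fbln1 (0.053), and removal of the length trend Bub3 (0.051) and Gapdh (0.057).

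The replicate numbers share no stated batch, and deviations of same-numbered libraries had correlations of -0.049, 0.041 and -0.091, so the numbers were not taken to pair the samples. A fit with the replicate number as a block called 3919 genes (1853 higher and 2066 lower) and 1768 differences.

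With 3 libraries per group, and 24434925 counts in the shallowest, changes of genes near 1 CPM such as S100b and Ifit1 rest on few counts. No library lacks the siRNA transfection, and none in the double knockdown has scramble siRNA, so the loss of scramble and the gain of Btg1 siRNA cannot be told apart. Whether libraries are separate cultures is not stated.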
